A study of Homo sapiens with 6 samples.

Results

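Aldo-keto reductases and 3 further enzymes under the control of the transcription factor NRF2 were followed in 2 human colon cancer cell lines. The set holds 10 genes: the aldo-keto reductases AKR1A1, AKR1B1, AKR1B10, AKR1C1, AKR1C2, AKR1C3 and AKR7A2, with NQO1, HMOX1 and TXNRD1. Its members are the array's probe sets whose platform annotation gives exactly 1 of these symbols, and every such probe set was kept. That rule found 14 of the 22283 probe sets of the table, for 8 of the 10 genes. The annotation used here names no probe set for AKR1A1 or AKR1B1, so neither is reported. No probe set was annotated to a member together with another gene.

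Aldo-keto reductases are soluble enzymes that use NADPH to reduce aldehydes and ketones, among them lipid peroxidation products, sugars, steroids and prostaglandins. NRF2, encoded by NFE2L2, is held at low level by KEAP1, an adaptor that presents it for ubiquitination. When electrophiles or oxidants modify KEAP1, NRF2 accumulates, pairs with a small MAF protein and binds antioxidant response elements, from which genes such as NQO1, HMOX1, TXNRD1, AKR1B10 and the AKR1C family are transcribed. In tumours that carry changes in this pathway these enzymes can be made in large amounts, and AKR1B10 is also a gene of normal intestinal epithelium.

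E1 is labelled as a metastatic colon cancer line derived in vivo, and its cell line field names HCT116. HCT116 itself is an established colon cancer line, labelled as poorly metastatic. Each line was measured on 3 Affymetrix arrays with total RNA, and the labels give no treatment, genotype or culture condition for either. The 3 arrays per line are labelled triplicates, with no separate cultures named, so a p-value here reflects how far 3 arrays of 1 line scatter, possibly for technical reasons, and each line is represented once. A value is a linear probe set intensity. Differences are E1 minus HCT116 on the log2(intensity + 32) scale, which understates changes of dim probe sets, and come with the standard error (SE) of a limma fit over all 22215 probe sets that are not array controls. A probe set is called at an adjusted p under 0.05, by the Benjamini-Hochberg method over all of them. Intensities of different probe sets are not compared with each other, since each set of probes has its own response.

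The E1 arrays differed from one another in the control signals that track RNA integrity. The ratio of the 3' to the 5' control signal of GAPDH was 0.803, 34.1 and 71.9 on E1 arrays 1, 2 and 3, against 0.774 to 0.811 on the HCT116 arrays. Values for E1 array 1 alone are therefore given beside most results. Those for E1 arrays 2 and 3 are given where a call or a sign of a named probe set differs with them. Of the colon epithelial markers, EPCAM read 1691 to 3428 in E1 and 1885 to 2009 in HCT116, and KRT18 read 5677 to 6285 in E1 and 7509 to 8466 in HCT116. The intestinal factors CDX1 and CDX2 stayed under 23 on all arrays. The 12 probe sets of 11 of 11 epithelial genes summed to 11616 to 14731 in E1 and 16993 to 19604 in HCT116. Of these 12 differences 3 lay above 0 and 9 below, the lowest at -2.91. In limma 3 of the 12 had an unadjusted p under 0.05, all lower in E1, against 11.7% of all probe sets. Hepatocyte genes were included because the liver is rich in several aldo-keto reductases, and they summed to 609 to 788 in E1 and 383 to 496 in HCT116 over 25 probe sets of 10 of 10 genes. None of these was listed at 0, and 3 probe sets of ALB, the defining hepatocyte gene, read 0.960 to 27.3 in E1 and 1.11 to 20.2 in HCT116. Over the 25 hepatocyte probe sets 17 differences lay above 0 and 8 below, the largest at 1.26. In limma 5 of them had an unadjusted p under 0.05, all higher in E1, against 4.75% of all probe sets. No probe set of either list was called with all arrays. With E1 arrays 2 and 3 the calls numbered 3 of the 12 epithelial and 1 of the 25 hepatocyte probe sets, against 10.6% of all probe sets. The part of these differences in the results below was not tested.

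The upstream sequences of the AKR1C genes are shown because these genes are near-copies that lie side by side on chromosome 10, and 4 of their 6 probe sets carry the suffix _x_at, which the manufacturer gives to sets with probes that can match other transcripts. In GRCh38.p14, AKR1C1, AKR1C2 and AKR1C3 lie at chr10:4963415-4983283, chr10:4987775-5018000 and chr10:5048781-5107686. The lines below give the 100 bases before each start that has a RefSeq promoter sequence here. For AKR1C1 they lie at chr10:4963315-4963414 on the plus strand, and for AKR1C2 at chr10:5003858-5003957 on the minus strand. For the upper and lower start of AKR1C3 they lie at chr10:5048681-5048780 and chr10:5094314-5094413 on the plus strand. The AKR1C2 start used lies inside the span of that gene, which reaches chr10:5018000. Capitals mark aligned bases that differ from AKR1C1, or that AKR1C1 lacks; in AKR1C1 itself they mark bases that AKR1C2 lacks.
AKR1C1: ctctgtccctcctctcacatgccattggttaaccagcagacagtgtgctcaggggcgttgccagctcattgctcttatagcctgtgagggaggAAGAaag
AKR1C2: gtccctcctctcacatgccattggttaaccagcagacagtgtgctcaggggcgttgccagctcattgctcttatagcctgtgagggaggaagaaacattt
AKR1C3 upper start: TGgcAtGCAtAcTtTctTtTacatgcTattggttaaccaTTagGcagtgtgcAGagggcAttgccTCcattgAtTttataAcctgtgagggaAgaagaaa
AKR1C3 lower start: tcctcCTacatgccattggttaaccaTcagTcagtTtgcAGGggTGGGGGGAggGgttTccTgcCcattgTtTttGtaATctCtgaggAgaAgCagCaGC
Over the 300 bases around each start, AKR1C1 and AKR1C2 were identical at 288 of 292 aligned bases, or 98.6%. AKR1C1 and AKR1C3 were identical at 78.0% of aligned bases for the upper start and 79.5% for the lower. These are promoters and not the sequences of the probes, which were not used here. Whether the AKR1C1 and AKR1C2 probe sets separate the transcripts of these genes was not tested.

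The core of the antioxidant response element, TGACNNNGC, was searched on both strands of RefSeq's promoter windows, from 250 bases before to 50 after each start. Windows were found for 8 of the 10 genes, all but AKR1B10 and HMOX1. Among all 35116 windows of this length 13.3% hold the motif. Of the 8 genes it was found in the windows of TXNRD1 and AKR7A2. The TXNRD1 and AKR7A2 stretches that hold it are shown with the match in capitals, at chr12:104215660-104215708 and chr12:104215751-104215799 on the plus strand for TXNRD1 and at chr1:19312213-19312261 on the minus strand for AKR7A2.
TXNRD1 first: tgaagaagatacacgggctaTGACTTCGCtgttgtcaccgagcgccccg
TXNRD1 second: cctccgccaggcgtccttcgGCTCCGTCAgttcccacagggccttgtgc
AKR7A2: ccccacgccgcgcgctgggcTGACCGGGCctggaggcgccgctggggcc
In the second TXNRD1 stretch the motif lies on the opposite strand. TXNRD1 has a further match at another start, and AKR7A2 has 2 more matches upstream, which are not printed. The related AP-1 motif, TGANTCA, which can overlap such elements, is held by 7.71% of all windows and was not found in the windows of these 8 genes. A match says only that the letters occur in the window. Sequence outside the windows was not searched, so a gene without a match can hold either motif elsewhere.

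None of the 14 probe sets was called between the lines. In bulk RNA such as this, fewer cells with a transcript and less transcript per cell cannot be told apart. By the same rule 0.770% of all probe sets were called, 0.216% higher and 0.554% lower in E1. An unadjusted p under 0.05 was reached by 3 of the 14, against 16.5% of all probe sets. Of the 3, AKR7A2 214259_s_at and AKR1C3 were higher in E1 (4.75% of all probe sets) and TXNRD1 was lower (11.7%). The arrays of the lines did not overlap for 3 of the 14, against 20.5% of all probe sets. AKR7A2 214259_s_at and NQO1 201468_s_at lay higher in E1 without overlap (7.45% of all) and TXNRD1 lower (13.0%). The counts in either direction lay near the shares of the whole table, while those higher in E1 lay above their shares and rest on 2 probe sets each. With E1 arrays 2 and 3 alone 0 of the 14 were called, against 10.6% of all probe sets. With E1 array 1 alone 0 of the 14 were called, against 0% of all probe sets, and 4 of the 14 had an unadjusted p under 0.05, against 12.6%. The differences went from -0.93 to 0.97, with 10 above 0 and 4 below, and their median was 0.19, against -0.02 over all probe sets. With E1 array 1 alone the median was 0.26, against -0.05 over all probe sets.

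**Figure D1:**
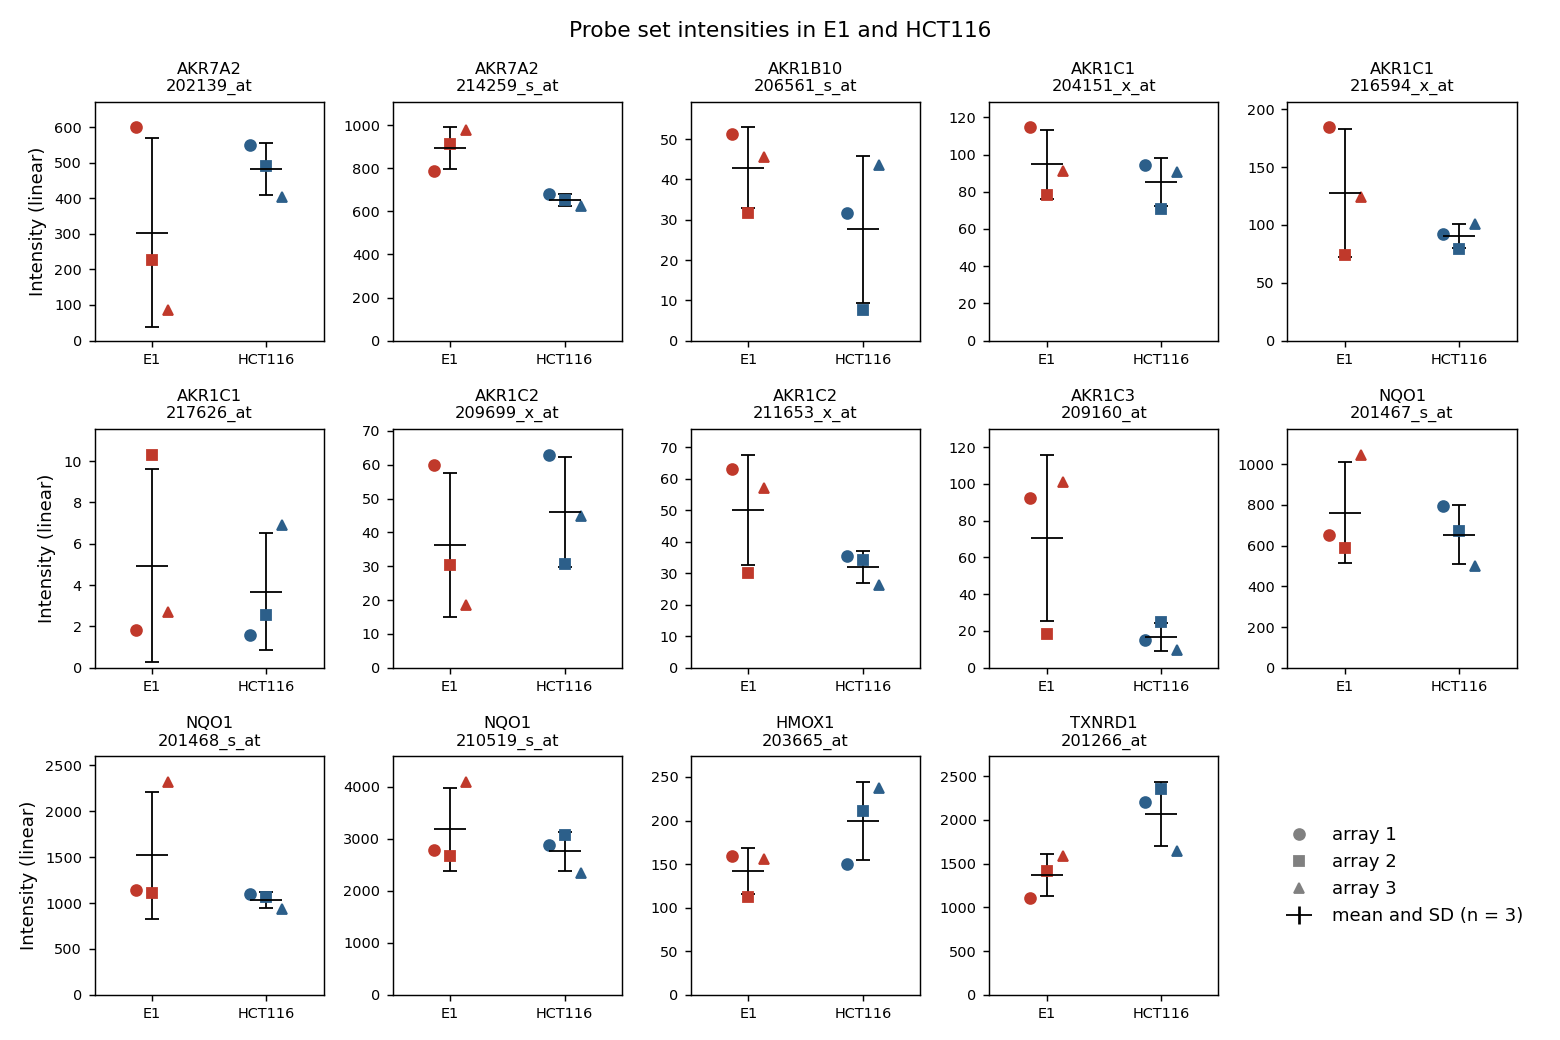
Intensity (linear scale, from 0) of each probe set on the 3 E1 arrays (red, left) and the 3 HCT116 arrays (blue, right), with 1 marker shape per array number and the mean and SD in black. The lines separate without overlap in TXNRD1, in NQO1 201468_s_at and in AKR7A2 214259_s_at, and AKR1C3 shows 2 high E1 arrays and 1 at the level of HCT116.

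AKR7A2, an aflatoxin aldehyde reductase that also reduces succinic semialdehyde, gave opposite pictures in its 2 probe sets. With 214259_s_at it read 787, 915 and 978 on E1 arrays 1, 2 and 3, against 679, 653 and 626 on the HCT116 arrays. All E1 arrays lay above all HCT116 arrays, with means of 893 ± 97.4 in E1 and 653 ± 26.4 in HCT116 (SD, n = 3 each). The difference of 0.43 (SE 0.13, 95% interval 0.12 to 0.73) did not pass over all probe sets in limma (adjusted p = 0.192).

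With 202139_at the same gene read 599, 226 and 85.1 on E1 arrays 1, 2 and 3, against 551, 490 and 405 on the HCT116 arrays. E1 array 1 lay above all HCT116 arrays and E1 arrays 2 and 3 below all of them. The difference was -0.93 (SE 0.58, interval -2.34 to 0.48, adjusted p = 0.491 in limma) with all arrays, 0.31 with E1 array 1 alone and -1.55 with E1 arrays 2 and 3. The log2 difference of 202139_at minus 214259_s_at was -0.38, -1.88 and -3.11 on E1 arrays 1, 2 and 3, in the order of their GAPDH ratios, and -0.59 to -0.29 on the HCT116 arrays. The part of RNA integrity in this was not tested. On E1 array 1, whose GAPDH ratio lay within the HCT116 range, both probe sets stood above the HCT116 mean, by 0.31 and 0.26.

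AKR1B10, an aldose reductase-like enzyme that reduces retinal and other aldehydes, has 1 probe set. It read 51.4, 31.8 and 45.5 on the E1 arrays, against 31.6, 7.55 and 43.6 on the HCT116 arrays. The lines overlapped. The difference of 0.37 (SE 0.26, interval -0.27 to 1.01) did not pass in limma (adjusted p = 0.550). It was 0.54 with E1 array 1 alone and 0.29 with E1 arrays 2 and 3.

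The AKR1C enzymes are hydroxysteroid dehydrogenases: AKR1C1 inactivates progesterone, AKR1C2 inactivates dihydrotestosterone, and AKR1C3 makes testosterone and prostaglandin F2 alpha. Their largest difference was that of AKR1C3, which read 92.3, 18.6 and 101 on E1 arrays 1, 2 and 3, against 15.0, 24.9 and 9.80 on the HCT116 arrays. E1 arrays 1 and 3 lay above all HCT116 arrays, and E1 array 2 lay among them. The means were 70.7 ± 45.3 in E1 and 16.5 ± 7.66 in HCT116 (SD, n = 3 each). The difference was 0.97 (SE 0.39, interval 0.023 to 1.91) with an unadjusted p of 0.0460 and an adjusted p of 0.295 in limma. Without E1 array 2 the difference was 1.42, and it was not called there either. With the GAPDH ratio as a covariate it was 1.24 (adjusted p = 0.498 in limma). It was 1.37 with E1 array 1 alone and 0.77 with E1 arrays 2 and 3 (adjusted p = 0.342).

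AKR1C1 is covered by 3 probe sets. With 216594_x_at it read 184, 74.0 and 124 on the E1 arrays, against 92.1, 79.4 and 100.4 on the HCT116 arrays. As with AKR1C3, E1 arrays 1 and 3 lay above all HCT116 arrays, while E1 array 2 lay below all of them. The difference was 0.32 (SE 0.27, adjusted p = 0.628 in limma), 0.82 with E1 array 1 alone and 0.073 with E1 arrays 2 and 3. With 204151_x_at it was 0.11 (SE 0.16, interval -0.28 to 0.49), from 115, 78.0 and 91.5 on the E1 arrays, against 94.6, 70.8 and 90.8 on the HCT116 arrays. The value of 204151_x_at was 0.33 with E1 array 1 alone and -0.0044 with E1 arrays 2 and 3. The third set, 217626_at, read at most 10.3 on any array and gives no usable order.

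AKR1C2 is covered by 2 probe sets whose differences had opposite signs. With 211653_x_at it read 63.2, 30.1 and 56.9 on the E1 arrays, against 35.4, 34.3 and 26.2 on the HCT116 arrays, a difference of 0.34 (SE 0.19, adjusted p = 0.443). E1 arrays 1 and 3 again lay above all HCT116 arrays, with a difference of 0.58 for E1 array 1 alone and 0.22 for E1 arrays 2 and 3. With 209699_x_at it read 59.8, 30.2 and 18.5 on the E1 arrays, against 63.0, 30.5 and 44.9 on the HCT116 arrays, a difference of -0.22 (SE 0.27, adjusted p = 0.774), which was 0.25 with E1 array 1 alone and -0.46 with E1 arrays 2 and 3. Among the 6 AKR1C probe sets, E1 array 2 was the lowest E1 array in 4. E1 arrays 1, 2 and 3 lay above the HCT116 mean in 5, 2 and 4 of the 6, against 42.7%, 43.6% and 51.6% of all probe sets. They lay above all HCT116 arrays in 4, 1 and 3 of the 6, against 24.2%, 26.0% and 35.3% of all probe sets. For E1 array 2 that 1 probe set was 217626_at, the dim AKR1C1 set without a usable order. It is also among the 2 in which E1 array 2 lay above the HCT116 mean.

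**Figure D2:**
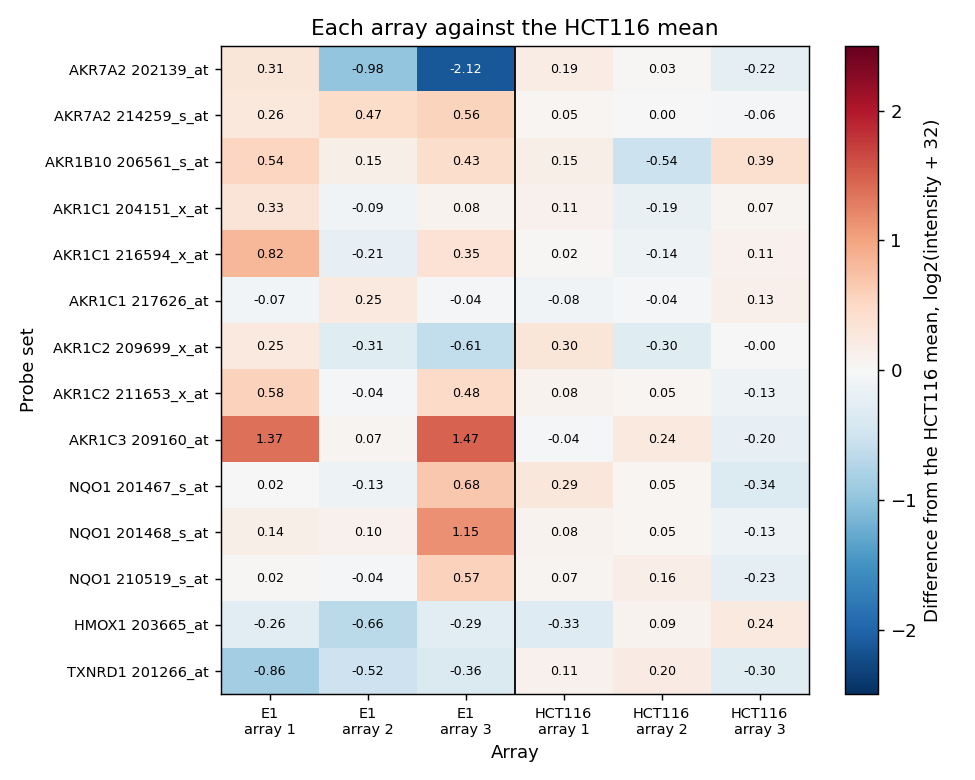
Difference of each array from the mean of the 3 HCT116 arrays on the log2(intensity + 32) scale, 1 row per probe set and 1 column per array, E1 left of the line, with red above and blue below that mean. AKR1C3 stands at 1.37, 0.07 and 1.47 on the E1 arrays, and AKR7A2 202139_at at 0.31, -0.98 and -2.12.

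NQO1 reduces quinones by the transfer of a pair of electrons, which avoids semiquinone radicals, and is the usual readout of NRF2 activity. Its 3 probe sets showed the same order of arrays at the top: E1 array 3 was the highest of the 6 arrays in each. With 210519_s_at, NQO1 read 2782, 2664 and 4095 on the E1 arrays, against 2872, 3069 and 2342 on the HCT116 arrays. With 201467_s_at it read 652, 587 and 1048 on the E1 arrays, against 792, 670 and 501 on the HCT116 arrays. In both, E1 arrays 1 and 2 lay among the HCT116 arrays.

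With 201468_s_at, NQO1 read 1137, 1106 and 2321 on the E1 arrays, against 1094, 1067 and 938 on the HCT116 arrays, with no overlap. The differences of the 3 probe sets were 0.18 (SE 0.21), 0.19 (SE 0.27) and 0.46 (SE 0.30), with adjusted p from 0.506 to 0.814 in limma. The interval of 210519_s_at went from -0.32 to 0.69 and that of 201468_s_at from -0.26 to 1.18. With E1 array 1 alone the values of 210519_s_at, 201467_s_at and 201468_s_at were 0.020, 0.018 and 0.14, and with E1 arrays 2 and 3 they were 0.27, 0.27 and 0.62. The signs of 210519_s_at and 201467_s_at rested on E1 array 3: without it they stood at -0.011 and -0.054. Without that array 201468_s_at stayed above 0, at 0.12.

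HMOX1, haem oxygenase 1, opens the haem ring to biliverdin, carbon monoxide and iron. It read 159, 112 and 155 on the E1 arrays, against 150.4, 211 and 238 on the HCT116 arrays. The lines overlapped through HCT116 array 1. Means were 142 ± 26.1 in E1 and 199.8 ± 44.7 in HCT116 (SD, n = 3 each), and the difference of -0.40 (SE 0.20, interval -0.89 to 0.079) did not pass in limma (adjusted p = 0.381). It was -0.26 with E1 array 1 alone and -0.48 with E1 arrays 2 and 3.

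TXNRD1 is the cytosolic thioredoxin reductase, a selenoprotein that keeps thioredoxin reduced, and it holds the motif matches shown above. It read 1111, 1416 and 1586 on the E1 arrays, against 2200, 2349 and 1648 on the HCT116 arrays. All E1 arrays lay below all HCT116 arrays, although E1 array 3 and HCT116 array 3 were close. Means were 1371 ± 240 in E1 and 2065 ± 370 in HCT116 (SD, n = 3 each). The difference of -0.58 (SE 0.20, interval -1.06 to -0.096) had an unadjusted p of 0.0259 and an adjusted p of 0.245 in limma. It was -0.86 with E1 array 1 alone and -0.44 with E1 arrays 2 and 3.

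**Figure D3:**
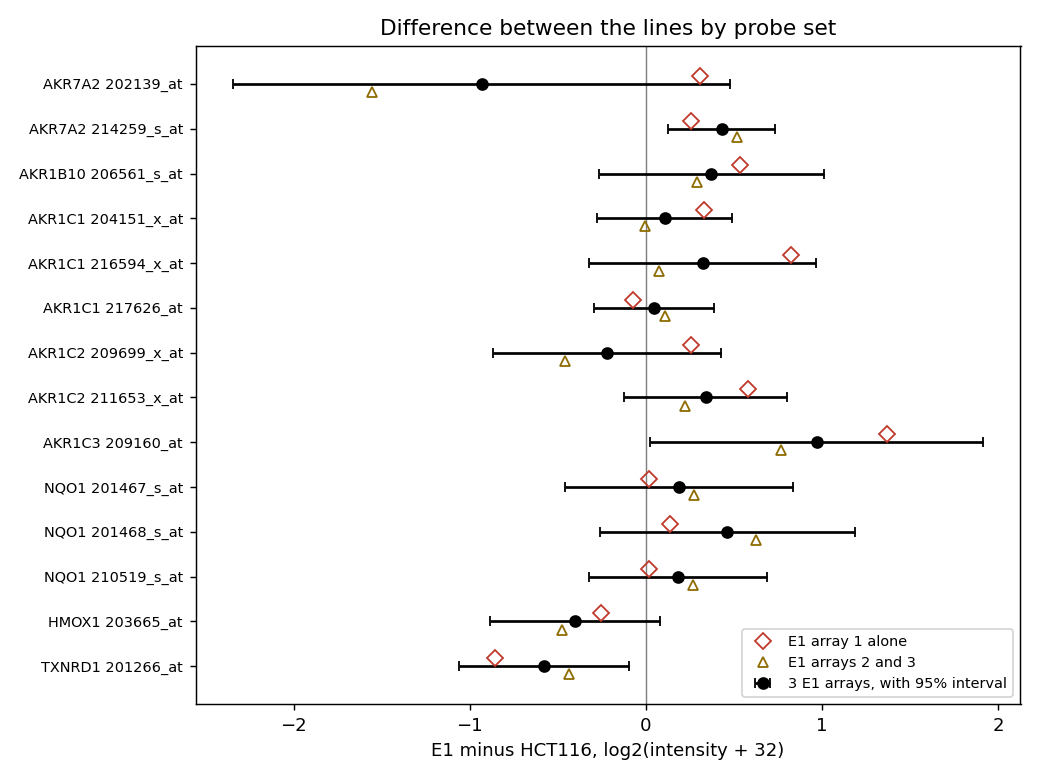
E1 minus HCT116 on the log2(intensity + 32) scale for each probe set, with the 95% interval of the limma fit (black), the value for E1 array 1 alone (red diamonds) and that for E1 arrays 2 and 3 (yellow triangles). The interval lies above 0 for AKR7A2 214259_s_at and AKR1C3 and below 0 for TXNRD1, before any adjustment for the number of probe sets tested.

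The genes that control NRF2 were looked at next. NFE2L2 read 910, 1243 and 1260 on the E1 arrays, against 956, 1411 and 859 on the HCT116 arrays, a difference of 0.10 (SE 0.23, adjusted p = 0.903) that was -0.20 with E1 array 1 alone and 0.24 with E1 arrays 2 and 3. KEAP1, its inhibitor, read 324, 323 and 226 on the E1 arrays, against 703, 408 and 562 on the HCT116 arrays. All E1 arrays of KEAP1 lay below all HCT116 arrays. The KEAP1 difference of -0.85 (SE 0.23) did not pass in limma (adjusted p = 0.178), and it was -0.70 with E1 array 1 alone and -0.93 with E1 arrays 2 and 3 (adjusted p = 0.0974).

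Of 22 probe sets for 14 of 15 genes of NRF2 and its regulators, 0 were called, with a median difference of 0.03. An unadjusted p under 0.05 in limma was reached by 4, against 16.5% of all probe sets. With E1 arrays 2 and 3 the calls numbered 1 of 22, against 10.6% of all probe sets. GSK3B, a kinase that marks NRF2 for degradation, stood at -0.57 (SE 0.16, adjusted p = 0.185).

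Among the other NRF2 targets, 2 of 43 probe sets for 29 of 33 genes were called lower in E1 and 0 higher. The unadjusted p was under 0.05 for 12, against 16.5% of all probe sets, and the median difference was -0.16. One of the 2 called was GSR, glutathione reductase. It read 271, 216 and 180.2 on the E1 arrays, against 923, 771 and 889.9 on the HCT116 arrays. GSR fell by 1.82 on the log2 scale (SE 0.17, adjusted p = 0.0179 in limma), and by 1.55 with E1 array 1 alone. The other was CBR3, a carbonyl reductase of another enzyme family that shares substrates with the aldo-keto reductases. It read 7.85, 4.71 and 5.97 on the E1 arrays, against 51.7, 41.7 and 39.7 on the HCT116 arrays, and fell by 1.00 on that scale (SE 0.12, adjusted p = 0.0301), and by 0.94 with E1 array 1 alone. The size of the CBR3 difference is set by the offset, since its E1 readings are far below 32: it was -2.67 with an offset of 1 and -0.44 with an offset of 100, where the call was lost (adjusted p = 0.0508). The CBR3 probe set drops out when the lowest 40% of probe sets are left out. Both were called with E1 arrays 2 and 3, GSR at -1.96 (adjusted p = 0.00315) and CBR3 at -1.03 (adjusted p = 0.0108). In all 10 of the 43 probe sets were called there, against 10.6% of all probe sets. Both calls were lost when any 1 array other than E1 array 1 was left out, with GSR at -1.90 to -1.70 and CBR3 at -1.04 to -0.93. They were lost as well with the arrays blocked by replicate number (adjusted p = 0.145 for GSR and 0.189 for CBR3 in limma), where no probe set of the table was called. Both calls were also lost with the GAPDH ratio as a covariate, with GSR at -1.54 and CBR3 at -0.94, and with E1 array 1 alone, where no probe set of the table was called in limma and 2791 had an unadjusted p under 0.05.

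With all arrays the remaining lists held 1 call. With E1 arrays 2 and 3, where 10.6% of all probe sets were called, their calls numbered 5 of 19 for carbonyl and quinone reduction, 1 of 11 for other aldo-keto reductases, 4 of 21 for the thioredoxin system, 4 of 23 for haem, 7 of 27 for aldehyde dehydrogenases and 0 of 12 for polyol genes. Of 19 probe sets for 17 of 18 other carbonyl- and quinone-reducing enzymes, 1 was called lower in E1, the CBR3 probe set already described, and 0 higher, with a median of -0.23. Of 11 probe sets for 6 of 9 other genes of the aldo-keto reductase superfamily, 0 were called, with a median of -0.06. Among them was KCNAB2, a potassium channel beta subunit with the aldo-keto reductase fold. With 203402_at it read 28.6, 28.4 and 26.8 on the E1 arrays, against 75.3, 69.8 and 55.2 on the HCT116 arrays. The difference was -0.72 (SE 0.12, adjusted p = 0.0746 in limma), and -0.70 with E1 array 1 alone. It was called with E1 arrays 2 and 3 at -0.72 (adjusted p = 0.0354). The other KCNAB2 probe set, 211791_s_at, overlapped between the lines and stood at -0.36 (adjusted p = 0.427). KCNAB1 stood at 0.22 (SE 0.14) with 210078_s_at, which read at most 13.8 on any array. Its other probe sets stood at -0.13 to 0.014.

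Of 21 probe sets for 11 of 16 genes of the thioredoxin and peroxiredoxin system, 0 were called, with a median of 0.04. An unadjusted p under 0.05 in limma was reached by 8, against 16.5% of all probe sets. Beside TXNRD1, the mitochondrial thioredoxin TXN2 stood at -0.63 (SE 0.11, adjusted p = 0.0805) with 209077_at. The mitochondrial reductase TXNRD2 stood at -1.23 (SE 0.34) with 211177_s_at, at -0.43 with E1 array 1 alone and at -1.63 with E1 arrays 2 and 3, where it was called (adjusted p = 0.00308). Its other probe set stood at -0.01. TXN2 209077_at was called with E1 arrays 2 and 3 too, at -0.60 (adjusted p = 0.0402 in limma), and stood at -0.69 with E1 array 1 alone. The other TXN2 probe set, 209078_s_at, stood at -1.59 (SE 0.45, adjusted p = 0.184). It stood at -0.52 with E1 array 1 alone and at -2.12 with E1 arrays 2 and 3 (adjusted p = 0.00298). It read 366, 114 and 86.9 on E1 arrays 1, 2 and 3, against 596, 492 and 538 on the HCT116 arrays. Its E1 values ran down in the order of the GAPDH ratios. TXNRD2 211177_s_at read 66.5, 9.62 and 12.2 on the E1 arrays, against 108, 94.9 and 98.5 on the HCT116 arrays. The part of RNA integrity in these values was not tested.

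Of 23 probe sets for 12 of 15 genes of haem synthesis and breakdown and iron storage, 0 were called, with a median of -0.17. An unadjusted p under 0.05 in limma was reached by 7, against 16.5% of all probe sets. The haem transporter SLC48A1 stood at -0.80 (SE 0.17, adjusted p = 0.116 in limma) with 218416_s_at, and at -0.59 with E1 array 1 alone. Its other probe sets stood at -0.72 (218417_s_at, adjusted p = 0.256) and -0.27 (48106_at, adjusted p = 0.628), the latter with overlap. FTL, the ferritin light chain, stood at -0.47 (SE 0.12) with 212788_x_at, and at -0.30 with E1 array 1 alone. With E1 arrays 2 and 3 SLC48A1 218416_s_at was called at -0.91 (adjusted p = 0.0338) and FTL 212788_x_at at -0.55 (adjusted p = 0.0407). Its other probe set, 213187_x_at, read 2782, 535 and 111 on E1 arrays 1, 2 and 3, against 4567, 4819 and 4059 on the HCT116 arrays, so its E1 values ran down in the order of the GAPDH ratios, as in AKR7A2 202139_at.

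Of 27 probe sets for 14 of 14 aldehyde dehydrogenases, which oxidise the aldehydes that aldo-keto reductases reduce, 0 were called. An unadjusted p under 0.05 in limma was reached by 7, against 16.5% of all probe sets. ALDH3B1 stood at -0.93 (SE 0.22, adjusted p = 0.134) with 205640_at and ALDH7A1 at 0.86 (SE 0.23, adjusted p = 0.173) with 208950_s_at. With E1 array 1 alone they stood at -0.62 and 0.37. With E1 arrays 2 and 3 they stood at -1.09 (adjusted p = 0.0339) and 1.10 (adjusted p = 0.00947), and 7 of the 27 probe sets were called. Both genes have further probe sets, not given here, which can differ. Of 12 probe sets for 5 of 7 genes of polyol and fructose handling, 0 were called. NFAT5, the transcription factor of the osmotic response, stood at -0.56 (SE 0.17) and the inositol transporter SLC5A3 at 1.15 (SE 0.47).

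**Figure D4:**
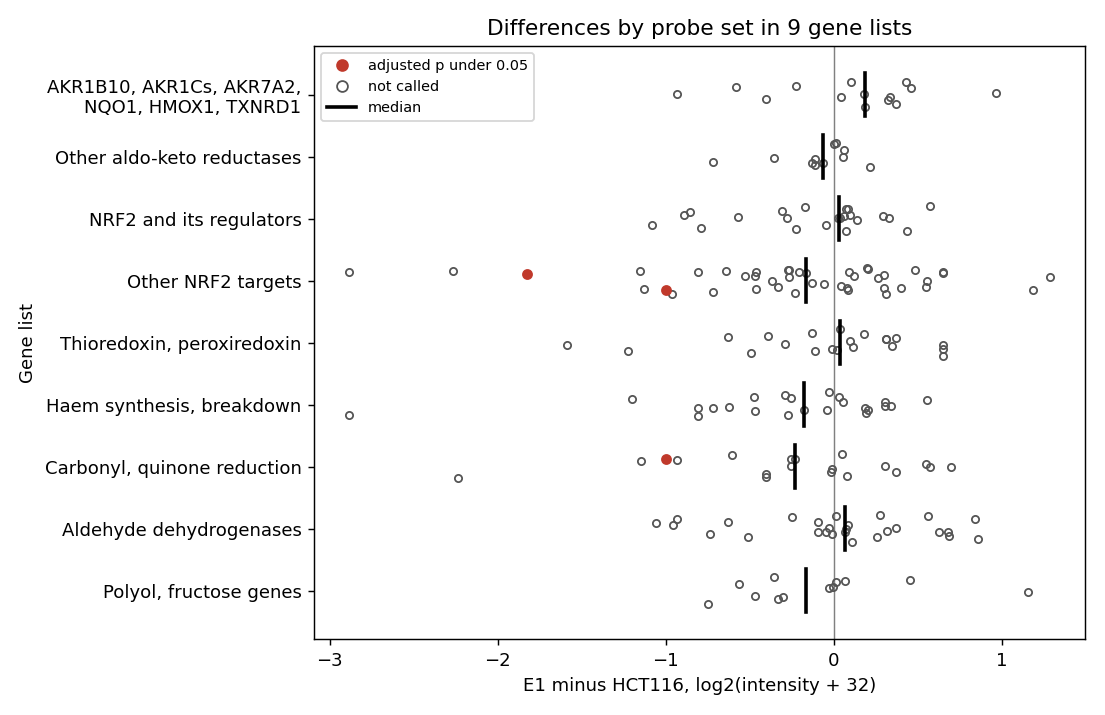
E1 minus HCT116 on the log2(intensity + 32) scale for every probe set of 9 gene lists, with black bars at list medians and filled red points for probe sets at an adjusted p under 0.05. The red points are GSR and CBR3 among the other NRF2 targets, and CBR3 again among the carbonyl-reducing enzymes.

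The probe sets whose 6 array values ran most like those of a member were found by the root mean square difference of their deviations from the HCT116 mean. For TXNRD1, LRRFIP1 was nearest, at 0.080 on the log2 scale among 9930 candidates, followed by FEZ2 and CDS1. For AKR1C3 the nearest were GLRX, at 0.19, a glutaredoxin, then OPN3 and the chemokine CXCL8. For AKR7A2 214259_s_at they were NFYB, INPP5E and RMC1, and for AKR1B10 they were TNK1, HECTD3 and PIP4K2B. These are descriptions over 6 arrays, and none of the 12 probe sets was called.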

How the data were processed

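The deposited table holds linear probe set intensities, 1 per probe set and array. How the authors corrected background, summarized probes and scaled the arrays is not stated by the labels or the table. All 6 columns were used. Intensities were transformed as log2(intensity + 32) without further normalization, without the 68 control probe sets. The platform annotation pairs 19065 of the 22215 remaining ones with a single symbol and 1043 with several, and does not list 2107. Lines were compared over single probe sets with limma 3.58.1 in R 4.3.3 (lmFit, eBayes), all tests being two-sided. The number of arrays limits the precision of every value.

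The members, gene lists and settings were chosen with earlier results of these data known. Named list genes are called ones (up to 4) or, where none was called, the 2 with the smallest p, plus NFE2L2 and KEAP1. Each is given by its probe set with the smallest p, and other probe sets of the gene can differ. The scripts were tested on simulated data. Promoters are RefSeq's for GRCh38.p14, aligned with Biopython 1.88. Alternatives were other normalizations, offsets, filters, probe set choices and variance models, a replicate block, a GAPDH covariate and leaving out arrays. Same-numbered arrays of the lines deviated from their line means with correlations of -0.041, -0.31 and -0.086 across probe sets, so no pairing by number was seen. The E1 arrays also differ in their GAPDH ratios, so these correlations cannot exclude a pairing. Marker sums overlapped between the lines for macrophage (258 to 281 in E1, 145 to 277 in HCT116), leukocyte (347 to 439 in E1, 257 to 419 in HCT116), fibroblast (653 to 861 in E1, 647 to 743 in HCT116) and endothelial genes (209.8 to 276 in E1, 219 to 237 in HCT116).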

Additional observations from a re-analysis of the deposited data

How the results depend on the processing

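None of the 14 probe sets was called under any alternative, at 1 to 5 with an unadjusted p under 0.05. Of 220 values of these probe sets under the alternatives 208 kept their sign, and 12 did not. With the GAPDH ratio as covariate NQO1 201467_s_at stood at -0.054, NQO1 210519_s_at at -0.033, AKR7A2 202139_at at 0.38, AKR1C2 209699_x_at at 0.27, AKR1C1 217626_at at -0.044 and NFE2L2 at -0.20. With E1 array 1 alone AKR7A2 202139_at stood at 0.31, AKR1C2 209699_x_at at 0.25, AKR1C1 217626_at at -0.073 and NFE2L2 at -0.20. NFE2L2 ranged from -0.045 to 0.30 with 1 array left out, AKR1C1 204151_x_at from -0.0044 to 0.20, AKR1C1 217626_at from -0.056 to 0.11, NQO1 201467_s_at from -0.054 to 0.35 and NQO1 210519_s_at from -0.011 to 0.30. The cause was not tested. TXNRD1 and HMOX1 stayed below 0 in 17 of 17 alternatives, TXNRD1 from -0.87 to -0.43 and HMOX1 from -0.57 to -0.19. AKR1C3 stayed above 0 in 16 of 16, from 0.51 to 1.80, and has no value without the lowest 40% of probe sets, which leaves it out.

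The count of 171 called probe sets became 111 with an offset of 100, 310 without the lowest 40% of probe sets, 50 with 1 probe set per gene, 28 without _x_at and _s_at probe sets, 6 with the GAPDH covariate, 0 with E1 array 1 alone and 5 at an adjusted p under 0.01. Leaving out 1 array gave 5 to 2358 calls, 2358 without E1 array 1 and 5 to 9 without any other. With the replicate number as a block 0 were called, with 3126 at an unadjusted p under 0.05 in limma. The labels do not say whether same-numbered arrays belong together. Quantile normalization called 79 higher and 108 lower in E1, and subtraction of array medians, which moved the median of all differences to 0.13, called 79 and 127, against 48 and 123 as reported.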
